A study of Arabidopsis thaliana and Hordeum vulgare and Setaria italica with 13 samples.

Results

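The tRNA pool of maize (Zea mays) was set against that of foxtail millet (Setaria italica), a panicoid grass like maize, in 2 tRNA-seq libraries of the 13 libraries of the series. All 52 anticodon families of the tRNA-seq table entered, and the amino acid sums were taken over rows that share the first 3 letters of their name. Here a family means all tRNAs that share an anticodon, and its name joins the amino acid to the anticodon spelled with T for U (AspGTC). The groups were Z. mays seedlings and S. italica seedlings, with 1 library each. Both species were raised in soil at 23 ºC under 16 h of light per day and sampled at 10 days of age. No genotype, cultivar or treatment is stated for either species, and RNA of both was pretreated with a kit for tRNA fragments before the libraries were made. The labelled tissue could not be checked, since the table holds tRNAs and no marker gene of a tissue. Values were percentages of the total tRNA abundance of a library, and the depth behind them is not stated, so they carry no interval. With 1 library per species no difference has a replicate check, and the species, the library and the reference tRNAs counted in each species cannot be told apart. In RNA of a whole seedling, fewer cells of a type and less RNA per cell cannot be told apart either.

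A tRNA carries an amino acid to the ribosome and reads the codon with its anticodon. The first anticodon base faces the last base of the codon, where pairing is loose: G there reads codons ending in C or U, C reads those ending in G, and A is usually changed to inosine. In a green seedling tRNAs come from the nucleus, the plastids and the mitochondria, and plastids carry a nearly full tRNA set of their own. Several anticodons, among them those of AspGTC, GlnTTG and GluTTC, are encoded by both the nucleus and the organelles, so a family can mix tRNAs of different compartments.

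The tRNA-seq table gives no sequences. Those below come from the deposited YAMAT-seq tables, an assay of full-length tRNAs with their CCA end, and are of families that the comparison turns on. They are written 5′ to 3′ with the anticodon in capitals, and each is the sequence with the most reads of its family in that library.
Z. mays and S. italica AspGTC: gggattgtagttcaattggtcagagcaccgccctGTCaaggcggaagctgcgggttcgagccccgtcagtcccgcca
Z. mays GlnTTG: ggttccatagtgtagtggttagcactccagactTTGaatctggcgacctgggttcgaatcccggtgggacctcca
S. italica GlnTTG: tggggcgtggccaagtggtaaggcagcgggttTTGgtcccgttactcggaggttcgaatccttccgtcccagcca
Z. mays GluTTC: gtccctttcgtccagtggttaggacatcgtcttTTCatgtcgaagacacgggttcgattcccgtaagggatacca
S. italica GluTTC: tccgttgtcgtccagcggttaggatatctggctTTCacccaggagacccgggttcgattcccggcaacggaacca
S. italica SerGCT: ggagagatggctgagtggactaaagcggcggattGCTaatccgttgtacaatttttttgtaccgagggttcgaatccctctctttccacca
A. thaliana SerGGA: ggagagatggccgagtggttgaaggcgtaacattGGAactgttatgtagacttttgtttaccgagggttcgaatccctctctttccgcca

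The AspGTC sequence was the same in both grasses. It equals the plastid AspGTC of Arabidopsis thaliana and differs by 1 edit from the mitochondrial one. The GlnTTG sequences differed by 35 edits. The Z. mays one stood 8 edits from the nearest nuclear and 35 from the plastid GlnTTG of A. thaliana, and the S. italica one stood 5 edits from the plastid and 33 from the nearest nuclear one. The GluTTC sequences differed by 18 edits. The Z. mays one, of 999 reads, stood 0 edits from a mitochondrial GluTTC of A. thaliana. The S. italica one, of 337 reads, stood 1 edit from a nuclear one. They held 94.0% and 59.5% of the GluTTC reads of their libraries. GluTTC was only 0.00536% of the YAMAT-seq reads in Z. mays and 0.00826% in S. italica. The S. italica SerGCT sequence, of 64 reads, stood 9 edits from the plastid SerGCT of A. thaliana and 37 from the nearest nuclear one. No SerGGA sequence was listed in YAMAT-seq of either grass, and the A. thaliana one shown matched the plus strand of the plastid genome in TAIR10.1, positions 44827 to 44913, the tRNA gene ArthCt125. The sources used here do not say which of these tRNAs the tRNA-seq percentages counted.

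Serine tRNAs led both pools. SerGGA, which reads the serine codons UCC and UCU, was 25.8% of the pool in Z. mays and 21.4% in S. italica. SerGCT, which reads the serine codons AGC and AGU, was 25.1% in Z. mays and 16.9% in S. italica. They were the largest 2 families of both libraries, at 51.0% together in Z. mays and 38.3% in S. italica. Their log2 ratios of Z. mays over S. italica, computed here and below on percent + 0.01, were 0.27 and 0.57, within 2-fold. The series has 5 other species in tRNA-seq: Sorghum bicolor (sorghum), Hordeum vulgare (barley), Triticum aestivum (wheat), Glycine max (soybean) and A. thaliana. Each of the 2 serine families was above all of them in both grasses: those species had 0% to 1.30% SerGGA and 1.78% to 3.88% SerGCT. SerGGA was listed at 0 in H. vulgare, T. aestivum and G. max. The sources used here do not state whether the reference tRNAs of those species held it. In the TAIR10.1 annotation of A. thaliana, 1 nuclear tRNA gene is listed as SerGGA, against 37 as SerAGA and 13 as SerGCT.

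Below the serine families the 2 pools had different orders. In Z. mays GlnTTG at 7.96%, AspGTC at 7.42%, MetCAT at 3.29% and GlyGCC at 2.82% came next. In S. italica GluTTC at 11.0%, ValAAC at 9.36%, ThrTGT at 8.44% and ArgTCT at 4.17% came next. Of the 10 largest families of each library, 6 were shared. Z. mays took 2 families to reach 50% and 14 to reach 90% of the library, against 4 and 16 in S. italica. Without SerGGA and SerGCT, and with the rest scaled to 100, the order at 50% turned round, with 6 families in Z. mays and 4 in S. italica, and the largest 2 summed to 31.5% in Z. mays and 33.0% in S. italica. Spearman's rho over the 39 families above 0 in both libraries was 0.780, given without a p since families of 1 library are not replicates and share its total.

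**Figure D1:**
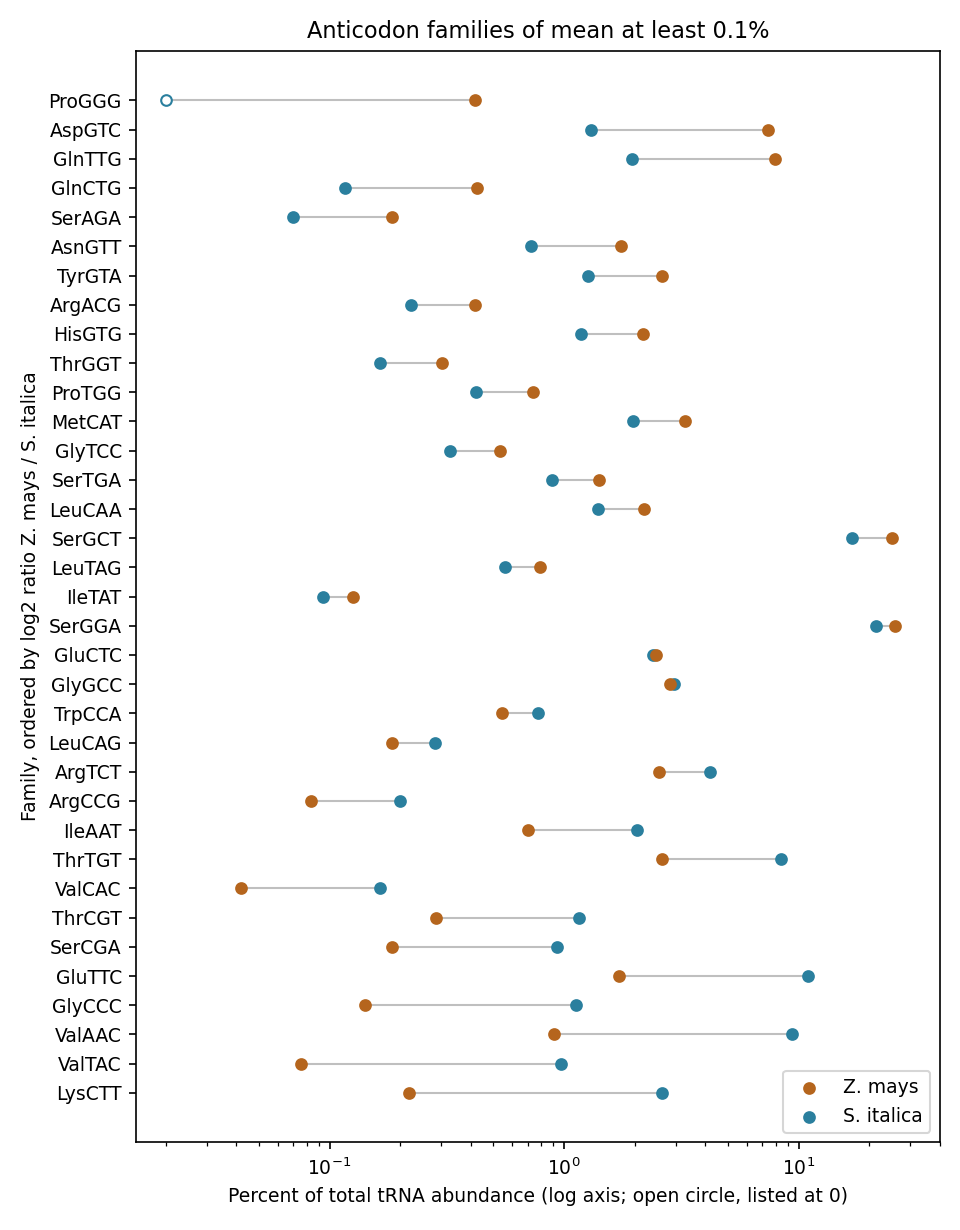
Percent of total tRNA abundance (log axis) of the 35 families averaging at least 0.1% over the Z. mays and S. italica tRNA-seq libraries, 1 library per species, ordered by their log2 ratio. SerGGA and SerGCT lie far to the right in both species, AspGTC and GlnTTG are higher in Z. mays, and LysCTT, ValTAC, ValAAC and GluTTC are higher in S. italica; the open circle is a value listed at 0.

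A family was called higher or lower at a 2-fold difference. By this rule 14 of the 52 families (26.9%) were higher in Z. mays and 17 (32.7%) were lower. Restricted to the 35 families averaging at least 0.1% over both libraries, 7 (20%) were higher and 11 (31.4%) were lower. The median log2 ratio was 0.05 over the 39 families above 0 in both libraries and 0.33 over all 52. With SerGGA and SerGCT left out and the rest scaled to 100, that median of 0.05 was 0.34, and 21 of 50 families (42%) were higher and 16 (32%) lower: all 14 higher calls and 16 of the 17 lower ones were kept. ArgCCG was the lower call not kept, at a log2 ratio of -0.87 instead of -1.16.

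The families higher in Z. mays were led by tRNAs of aspartate and glutamine. AspGTC, the tRNA for both aspartate codons, was 7.42% in Z. mays and 1.30% in S. italica, a log2 ratio of 2.51. GlnTTG, which reads the glutamine codon CAA, was 7.96% in Z. mays and 1.94% in S. italica, a log2 ratio of 2.03. The other glutamine family, GlnCTG, was 0.427% in Z. mays and 0.117% in S. italica, a log2 ratio of 1.78, and in both it was below the lowest of the other 5 species, 0.498%. All families of aspartate, glutamine and asparagine that were above 0 in both libraries were thus past 2-fold in the same direction.

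AsnGTT, the asparagine tRNA, was 1.74% in Z. mays and 0.725% in S. italica, and TyrGTA, the tyrosine tRNA, was 2.63% in Z. mays and 1.26% in S. italica. SerAGA, the main nuclear anticodon for the UCN serine codons in A. thaliana, was 0.184% in Z. mays and 0.0701% in S. italica. ProGGG was 0.419% in Z. mays and listed at 0 in S. italica and in all 5 other species. TyrGTA, at a log2 ratio of 1.05, stood just past the 2-fold limit, and ArgACG and HisGTG, both at 0.88, just short of it. HisGTG, the histidine tRNA, was 2.18% in Z. mays and 1.18% in S. italica.

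The families lower in Z. mays were led by glutamate, valine and threonine tRNAs. GluTTC, which reads the glutamate codon GAA and in plastids also starts the synthesis of tetrapyrroles such as chlorophyll, was 1.72% in Z. mays and 11.0% in S. italica, a log2 ratio of -2.67. ValAAC, a nuclear-type valine tRNA, was 0.904% in Z. mays and 9.36% in S. italica, a log2 ratio of -3.36. ThrTGT, which reads the threonine codon ACA, was 2.62% in Z. mays and 8.44% in S. italica, a log2 ratio of -1.68. These 3 families together were 23.6 percentage points apart, with S. italica the higher in each.

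LysCTT, which reads the lysine codon AAG, was 0.218% in Z. mays and 2.62% in S. italica, and its log2 ratio of -3.53 was the lowest of all 52. The Z. mays value was below the lowest of the other 5 species, 1.30%. ValTAC was 0.0753% in Z. mays and 0.970% in S. italica, a log2 ratio of -3.52. GlyCCC was 0.142% in Z. mays and 1.12% in S. italica, SerCGA was 0.184% and 0.935%, and ThrCGT was 0.285% and 1.16%. IleAAT, which reads isoleucine codons, was 0.703% in Z. mays and 2.05% in S. italica. ValCAC and ArgCCG, the remaining 2 of the 11, were at most 0.2% in either library.

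Families close to equal included GluCTC, the other glutamate tRNA, at 2.48% in Z. mays and 2.40% in S. italica. GlyGCC was 2.82% in Z. mays and 2.95% in S. italica, and CysGCA was 0.0837% and 0.0818%. Which of the 2 libraries was higher in GlyGCC turned round without the serine families, at log2 ratios of 0.27 against -0.06 with them. ArgTCT, the largest arginine family, was 2.54% in Z. mays and 4.17% in S. italica, a log2 ratio of -0.71, and MetCAT, which takes in initiator and elongator tRNAs, was 3.29% and 1.96%, a log2 ratio of 0.74. Both were within 2-fold.

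A total of 8 families were above 0 in Z. mays alone and 4 in S. italica alone, and IleGAT was 0 in both. After ProGGG the largest listed in Z. mays alone was ValGAC at 0.134%. ArgTCG, CysACA, LysTTT, PheGAA, AlaTGC and AspATC were each at most 0.0335%, and the 8 summed to 0.678% of the pool. ProGGG, CysACA and AspATC were 0 in all 6 other species. Those listed in S. italica alone were ProCGG at 0.0468%, ThrAGT and AlaAGC at 0.0351% each, and LeuTAA at 0.0117%. Of the 14 higher calls 7 rested on a 0 in S. italica, and of the 17 lower calls 4 rested on a 0 in Z. mays, so that the size of their log2 ratios was set by the added 0.01. The sources used here do not state whether the reference tRNAs of each species held these anticodons.

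Summed per amino acid, 6 of 20 amino acids (30%) were past 2-fold higher in Z. mays and 6 (30%) lower. Asp was 7.42% in Z. mays and 1.30% in S. italica, and Gln was 8.39% and 2.06%. Asn, Tyr, Pro and Phe were also higher, with Phe at 0.0167% in Z. mays and listed at 0 in S. italica. Lys was 0.243% in Z. mays and 2.62% in S. italica, and Val was 1.16% and 10.5%, log2 ratios of -3.38 and -3.17. Glu was 4.19% in Z. mays and 13.4% in S. italica, and Thr was 3.21% and 9.80%. Ile and Ala were lower too, with Ala at 0.0251% in Z. mays and 0.0701% in S. italica. Ser, the largest sum, was 52.7% in Z. mays and 40.2% in S. italica, within 2-fold, and above the 6.22% to 20.8% of the other 5 species.

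**Figure D2:**
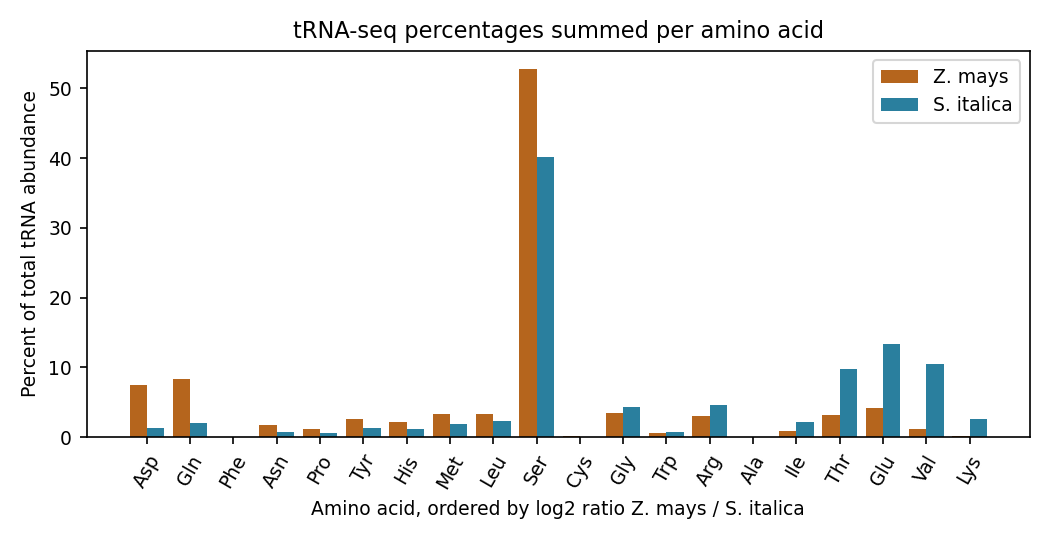
Percent of total tRNA abundance summed per amino acid in Z. mays and S. italica (1 tRNA-seq library each), ordered by log2 ratio. Ser takes 52.7% in Z. mays and 40.2% in S. italica; Asp and Gln on the left are higher in Z. mays, and Thr, Glu, Val and Lys on the right are higher in S. italica.

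A share within an amino acid does not move with the total that other amino acids take. Glutamate had the largest turn among amino acids above 1% in both libraries. GluCTC was 59.1% of the Glu sum in Z. mays and 17.9% in S. italica, and GluTTC was the remaining 40.9% in Z. mays and 82.1% in S. italica. GlyCCC was 4.07% of Gly in Z. mays and 25.5% in S. italica, while GlyGCC was 80.6% of Gly in Z. mays and 67.0% in S. italica. In valine ValAAC stood at 78.3% of the sum in Z. mays and 89.2% in S. italica, and ValGAC at 11.6% in Z. mays and listed at 0 in S. italica. In proline ProTGG was 59.1% of the sum in Z. mays and 75% in S. italica, with ProGGG at 33.6% in Z. mays. Glutamine kept nearly the same split, with GlnTTG at 94.9% of Gln in Z. mays and 94.3% in S. italica. The main serine families stayed close too, with SerGGA at 49.0% of Ser in Z. mays and 53.1% in S. italica and SerGCT at 47.6% and 42.1%. Of the small serine shares, SerCGA was 0.349% in Z. mays and 2.33% in S. italica, and SerAGA was 0.349% and 0.175%.

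**Figure D3:**
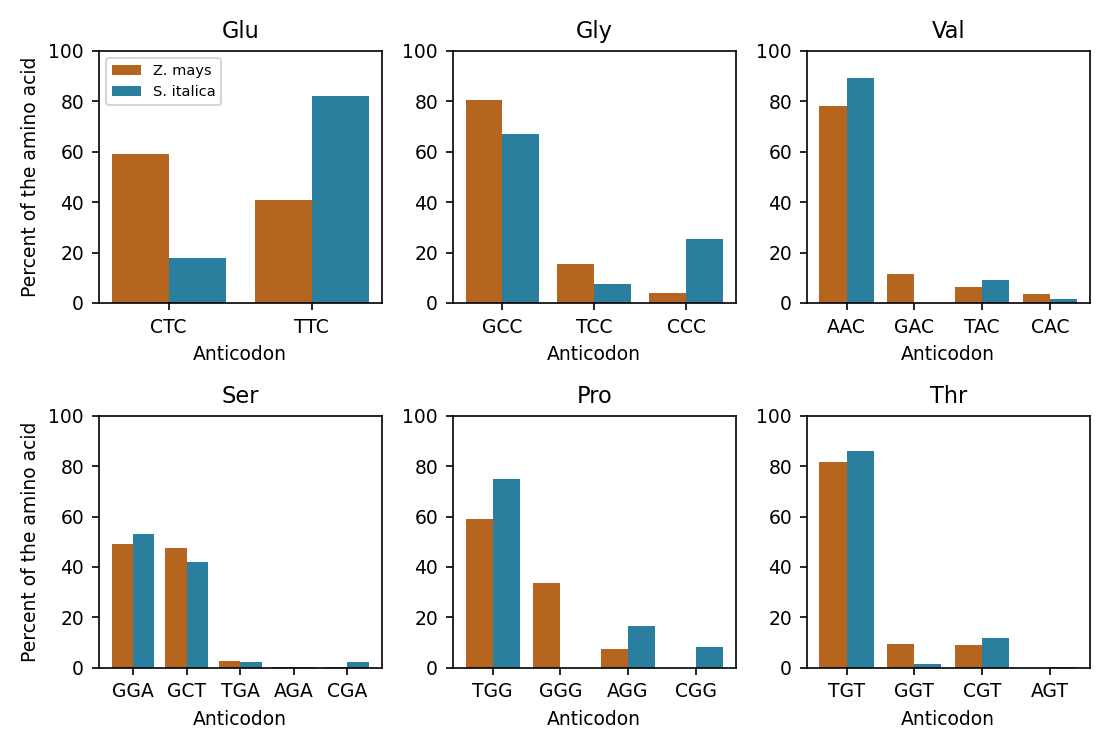
Share of each anticodon within its amino acid, in percent, for 6 amino acids in Z. mays and S. italica (1 tRNA-seq library each). GluCTC and GluTTC change places between the 2 species, GlyCCC is 4.07% of Gly in Z. mays and 25.5% in S. italica, and SerGGA and SerGCT hold similar shares.

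The anticodons that land plant plastid genomes encode took in 28 families of the table, and the same anticodon is often nuclear as well. The list held 29, and IleCAT, which shares the anticodon of MetCAT, had no row of its own. Whether MetCAT counted it is not stated. The 28 families summed to 93.2% in Z. mays and 79.0% in S. italica. Of them 8 were higher and 4 lower, and the median log2 ratio was 0.68, against 0.33 over all 52. The share of higher calls on this list was near the 26.9% of all 52 families. The other 24 anticodons summed to 6.66% in Z. mays and 20.9% in S. italica, with 6 higher, 13 lower and a median log2 ratio of -1.23. Over all 52 families 32.7% were lower, a share above that of the plastid list and below that of the other 24. Of the families averaging at least 0.1%, 4 of 21 on the plastid list were higher and 3 lower, against 20% higher and 31.4% lower over all 35, and of the other 14 families 3 were higher and 8 lower. GluTTC, ThrTGT, ValTAC and LeuTAA were the lower members of the plastid list, and the call of LeuTAA rests on a listed 0 in Z. mays.

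The families were also grouped by the first anticodon base, and the counts are read against 26.9% higher and 32.7% lower over all 52. Of the 13 families with G there, 11 were above S. italica in Z. mays, against 29 of all 52. In this group 6 were past 2-fold higher and 0 lower, and the median log2 ratio was 0.88, against 0.33 over all 52. Among the 6 higher ones, ProGGG, ValGAC and PheGAA rest on a listed 0 in S. italica. GlyGCC was the 1 family of this group with a log2 ratio below 0, IleGAT was listed at 0 in both libraries, and GlyGCC was above 0 without the serine families. Of the 15 families with C there, 1 (GlnCTG) was past 2-fold higher and 9 were lower, with a median log2 ratio of -1.29. Families with A and with T at this base had both directions, 3 higher and 4 lower of 10, and 4 higher and 4 lower of 14. The G families summed to 68.7% in Z. mays and 46.0% in S. italica, and the C families to 10.09% in Z. mays and 13.3% in S. italica. This split overlaps that by plastid list: 12 of the 13 G families are on it, and 12 of the 15 C families, all 9 lower ones included, are not.

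**Figure D4:**
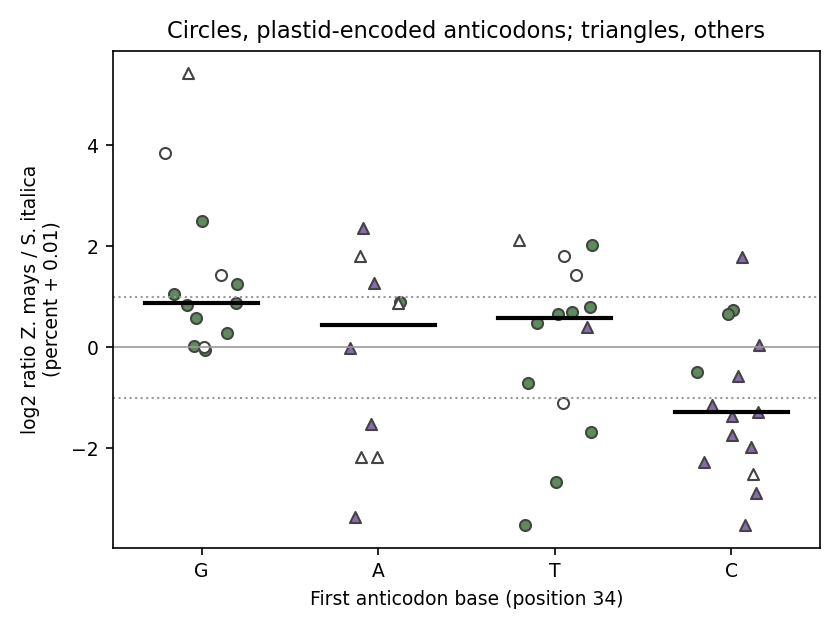
Log2 ratio of Z. mays over S. italica (percent + 0.01) for all 52 families by first anticodon base; circles are plastid-encoded anticodons, triangles the others, open symbols are listed at 0 in at least 1 of the 2 libraries, bars are medians, and dotted lines mark 2-fold. No G family lies below the lower dotted line and 9 of 15 C families do, against 17 of all 52 families.

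The families were last grouped by chemistry of the amino acid, and the counts are read against 26.9% higher and 32.7% lower over all 52. The amide pair Asn and Gln was higher in all 3 of its families, at 10.13% in Z. mays and 2.78% in S. italica. The acidic pair Asp and Glu had 1 family higher and 1 lower of 4, AspGTC and GluTTC, and summed to 11.6% in Z. mays and 14.7% in S. italica. Branched-chain Ile, Leu and Val had 2 higher and 5 lower of 12, at 5.25% in Z. mays and 14.9% in S. italica. The basic residues Arg, Lys and His had 2 higher and 3 lower of 8, at 5.52% and 8.45%. Leu and Ser together had 2 higher and 2 lower of 10, at 56.0% and 42.4%. Gly and Ala had 1 higher and 3 lower of 6, the aromatic residues 2 higher and 0 lower of 3, and Met and Cys 1 higher and 0 lower of 3. The counts of the acidic and basic residues lie near the shares over all families.

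The distance between the pools was measured as the sum of absolute differences divided by 2. Z. mays and S. italica were 33.3 percentage points apart, the second smallest value of the 21 pairs of species after H. vulgare and T. aestivum at 29.6. GluTTC made up 14.0% of the summed absolute difference, ValAAC 12.7%, SerGCT 12.3%, AspGTC 9.20%, GlnTTG 9.05%, ThrTGT 8.75% and SerGGA 6.73%. Without SerGGA and SerGCT, and with the rest scaled to 100, the distance was 49.5 points, the seventh smallest of the 21, against 29.5 for H. vulgare and T. aestivum. S. italica then stood nearer to H. vulgare, at 38.4 points, and to S. bicolor, at 47.5, than to Z. mays, and Z. mays stood nearer to H. vulgare at 41.1, T. aestivum at 41.8 and soybean at 43.3.

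Counted by family, the 31 past 2-fold between Z. mays and S. italica (59.6%) compare with 15 (28.8%) between H. vulgare and T. aestivum, 38 (73.1%) between Z. mays and S. bicolor and 25 (48.1%) between S. italica and S. bicolor. Z. mays and S. bicolor, which belong to the same tribe of grasses, were 71.7 points apart, the largest of the 21 distances, but 57.9 points and rank 15 without the serine families. Differences between 2 such counts were not tested.

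YAMAT-seq of the same 2 species gave a second readout, with 19833183 reads in Z. mays and 6851530 in S. italica; the sources do not state that it used the same RNA. A total of 19 families had at least 10 reads in both YAMAT-seq libraries, and they made up 35.8% of tRNA-seq in Z. mays and 38.2% in S. italica. The serine families were not among them: YAMAT-seq listed 0 serine reads in Z. mays and 106 in S. italica, 77 of them SerGCT. Of the 19 families, 9 had the same direction in both assays, 5 higher and 4 lower in Z. mays. In 7 families Z. mays was higher in tRNA-seq and lower in YAMAT-seq, and in 3 the reverse. GlyGCC took 95.1% of the YAMAT-seq reads in Z. mays and 89.5% in S. italica, and without it 11 of 18 families had the same direction. With at least 100 reads, 5 of 14 families had the same direction.

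AspGTC was higher in Z. mays in both assays, at 4.01% of the YAMAT-seq reads (95% exact interval 4.00 to 4.02) and 2.97% in S. italica (2.95 to 2.98). AsnGTT was too, at 0.0195% (0.0189 to 0.0201) in Z. mays and 0.0111% (0.0103 to 0.0119) in S. italica. ThrTGT was lower in both assays, at 0.00123% (0.00108 to 0.00139) in Z. mays and 0.00445% (0.00397 to 0.00498) in S. italica, from 244 and 305 reads of 1 sequence that was the same in both species. These intervals are Clopper-Pearson. They hold counting error alone, because amplified reads that carry no molecular identifier are not independent molecules.

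The glutamine families went opposite ways in the 2 assays. GlnTTG had 487 YAMAT-seq reads in Z. mays, or 0.00246% (0.00224 to 0.00268), and 449866 in S. italica, or 6.57% (6.55 to 6.58), while its tRNA-seq value was the higher one in Z. mays. In S. italica 99.8% of these reads were of the plastid-like sequence shown above, and in Z. mays the nuclear-like sequence shown held 157 reads, or 32.2%. GlnCTG had 98 reads in Z. mays and 776 in S. italica. The sources used here do not state whether the Z. mays reference tRNAs included the plastid GlnTTG. GluTTC was lower in Z. mays in YAMAT-seq, at 0.00536% (0.00504 to 0.00569) and 0.00826% (0.00759 to 0.00897) in S. italica. With GlyGCC left out its YAMAT-seq log2 ratio was 0.48 instead of -0.62, so that this direction depended on GlyGCC. The 2-fold rule was passed by 2 of the 19 families higher in Z. mays (10.5%) and 7 lower (36.8%) in YAMAT-seq. Without GlyGCC the balance turned round, with 8 of 18 families (44.4%) higher in Z. mays and 4 (22.2%) lower in YAMAT-seq. In tRNA-seq 5 of these 19 (26.3%) were higher and 4 (21.1%) lower. Of the 6 families past 2-fold in both assays, PheGAA, GlyCCC, ProCGG and ThrTGT had the same direction and GlnTTG and GlnCTG did not. The values of PheGAA and ProCGG rest on a 0 in 1 tRNA-seq library. Without GlyGCC, GlyCCC and ThrTGT were within 2-fold in YAMAT-seq, at log2 ratios of -0.80 and -0.75, and AsnGTT and AspGTC were past 2-fold higher in both assays.

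**Figure D5:**
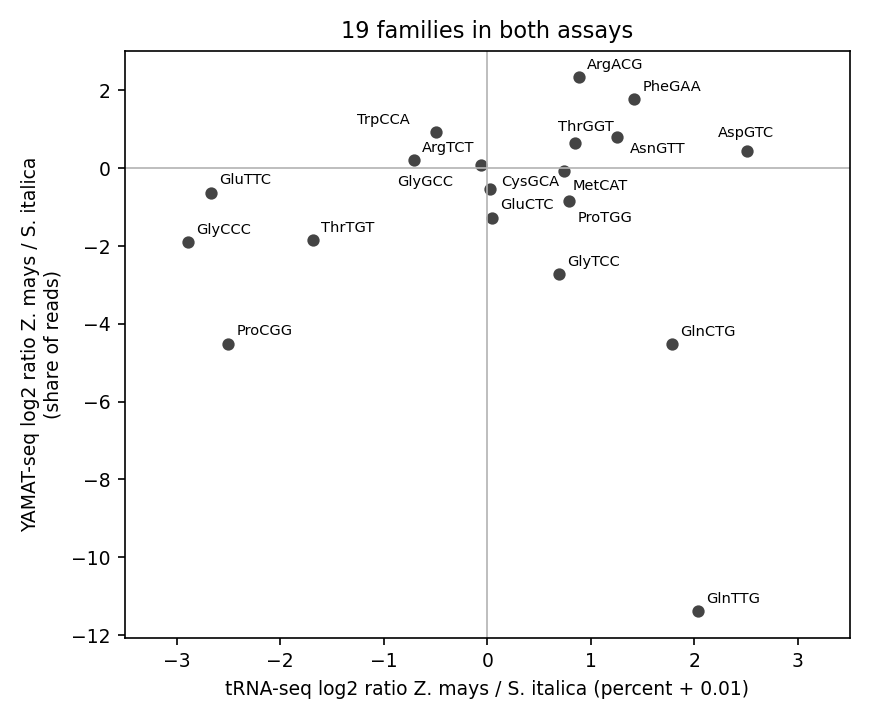
Log2 ratio of Z. mays over S. italica in tRNA-seq (percent + 0.01, horizontal axis) and in YAMAT-seq (share of reads, vertical axis) for the 19 families with at least 10 reads in both YAMAT-seq libraries, 1 library per species and assay. AspGTC, AsnGTT and PheGAA lie at the upper right, GlyCCC, ThrTGT and ProCGG at the lower left, and GlnTTG at the lower right with log2 ratios of 2.03 in tRNA-seq and -11.38 in YAMAT-seq.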

How the data were processed

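For tRNA-seq the authors deposited 1 table with, for each anticodon, its percent of all tRNA in the library, per the file headers. For YAMAT-seq they deposited, for each tRNA sequence seen, its raw read count, per the file headers. The submitters' processing notes name cutadapt; the aligner, the reference tRNAs of the 2 grasses and the treatment of reads with several matches are not given there, in the labels or in the file headers. The Z. mays and S. italica columns summed to 99.8 and 99.9.

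Ratios were log2 of percent + 0.01, and 2-fold was the limit, since 1 library per species allows no test. The naming rule took families among the 10 largest in either library, among the 10 highest or lowest ratios with a mean of at least 0.1%, at 0 in 1 library, or of an amino acid past 2-fold; this names 42. ArgCCG, CysGCA, LeuAAG, LeuCAA, LeuCAG, LeuTAG and TrpCCA do not meet it; their choice was made once the values were known. The members and lists were chosen with earlier results of these data known. The tissue columns of A. thaliana are identical in all 52 rows and counted as 1 species.

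The anticodon of a grass YAMAT-seq sequence was read from its anticodon loop. On A. thaliana this rule returned the anticodon listed for 143 of 143 sequences. The family name, with the amino acid taken from the genetic code, was the listed one for 141. Edit distances (edlib 1.3.9.post1) were taken to A. thaliana sequences of the same family, placed by exact match without CCA in TAIR10.1. Intervals came from scipy 1.17.1 (Python 3.11.15, pandas 2.3.3) and figures from matplotlib 3.10.9. The calculation was tested on simulated data, in which known folds were put into the larger S. italica percentages. These data had no noise, no zeros and no fixed total, so the test checks the code alone.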

Additional observations from a re-analysis of the deposited data

How the results depend on the processing

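Rescaling the columns to 100 changed none of the counts of families or amino acids, and neither did taking ratios relative to the median family. With a pseudocount of 0.1 in place of 0.01, 7 families were higher and 9 lower, and with 1 there were 2 and 4; with 0.001 there were 15 and 17. With a pseudocount of 1, 2 of the families of mean at least 0.1% were higher and 4 lower, and 2 amino acids were higher. At 3-fold 9 families were higher, and at 1.5-fold 23. With a mean of at least 0.5%, 4 of 25 families were higher. Without SerGGA and SerGCT, 13 families of mean at least 0.1% were higher, Z. mays needed 6 families for 50% of its pool, against 4 in S. italica, and its largest 2 made up 31.5%, against 33.0% in S. italica. Without GlyGCC, an alternative chosen for these counts after seeing the data, 8 families were past 2-fold higher and 4 lower in YAMAT-seq. With at least 100 YAMAT-seq reads, 5 families had the same direction in both assays. The other 46 values of these summaries moved by at most 1.5 times. Of 250 ratios of named families under these settings, 62 changed by at least 1.5-fold on the unlogged scale, and 0 ratios past 2-fold changed sign. No paired analysis was possible because each species has 1 library per assay. The depth of tRNA-seq is not stated, so the precision of its values is not known in full. Its values were whole multiples of 0.00837% in Z. mays and of 0.0117% in S. italica. Values of a few such steps are therefore coarse. Leaving out the serine families for every pair of species was chosen after seeing the data.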

Other observations

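Of the 5 leucine families, LeuCAA, LeuTAG and LeuCAG were within 2-fold, LeuAAG was higher in Z. mays and LeuTAA was listed at 0 in Z. mays. LeuCAA was 2.19% in Z. mays and 1.39% in S. italica, and LeuTAG was 0.787% and 0.561%. LeuAAG, a nuclear-type anticodon, was 0.1004% in Z. mays and 0.0117% in S. italica, against up to 9.38% in H. vulgare. The S. italica value of LeuAAG was the smallest nonzero value of that library. TrpCCA, the tryptophan tRNA, was 0.544% in Z. mays and 0.772% in S. italica, below and within the 0.653% to 1.63% of the other 5 species. Besides GlnCTG, the families CysGCA, LeuTAA and ThrAGT were lower in both grasses than in any of the other 5 species. LeuTAA was 0 in Z. mays and 0.0117% in S. italica, against a lowest of 0.0142% in the others. ThrAGT was 0 and 0.0351%, against 0.0651%. For LeuTAA and ThrAGT the gap is between values close to the smallest nonzero ones listed. CysGCA was 0.0837% in Z. mays and 0.0818% in S. italica, against a lowest of 0.152%.

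By the number of G and C in the anticodon, the 6 families with 3 had 1 higher (ProGGG) and 4 lower in Z. mays, with a median log2 ratio of -1.23, and summed to 3.47% in Z. mays and 4.35% in S. italica. The 22 families with 2 had 5 higher and 5 lower, and summed to 67.1% in Z. mays and 48.0% in S. italica. The 20 families with 1 had 7 higher and 6 lower, and summed to 28.4% in Z. mays and 45.4% in S. italica. The 4 families with 0 had 1 higher and 2 lower. Over all 52 families 26.9% were higher and 32.7% lower.

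The tRNA-seq percentages were stepped. All 47 values above 0 in Z. mays were whole multiples, within 0.001, of the smallest, 0.00837%, and all 43 in S. italica were whole multiples of 0.0117%. The sources used here do not say what a step stands for. LeuTAA and LeuAAG in S. italica, and AspATC and AlaCGC in Z. mays, stood at 1 step. The 2-fold calls of LeuAAG, AlaCGC and LeuTAA thus each rest on a value of 1 step, and LeuTAA was listed at 0 in Z. mays.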
